A study of Mus musculus with 12 samples.

Results

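The 9 transcription factor genes that are known from injured epithelium were followed through whole-kidney RNA sequencing of cisplatin-treated mice: Sox9, Sox4, Klf4, Klf5, Klf6, Runx1, Cebpb, Cebpd and Ets2. They were chosen by name, with earlier results of these data known, and all 9 were found by Ensembl identifier among the 28991 genes of the count table. All 9 were also among the 20370 genes with enough counts to be tested. The animals were male BALB/c mice, an inbred strain, aged 8 weeks, in 4 groups of 3 mice, and none carried an engineered allele according to the labels. Saline mice received daily intraperitoneal saline for 6 days. Dichloroacetate mice received 250 mg/kg dichloroacetate daily for 6 days by the same route. Cisplatin mice received saline for 5 days and then a single injection of 20 mg/kg cisplatin. Combination mice received 250 mg/kg dichloroacetate for 5 days and then dichloroacetate together with 20 mg/kg cisplatin. Both cisplatin groups were sampled 24 h after that injection. Cisplatin is a platinum drug that cross-links DNA and injures the renal tubule. Dichloroacetate inhibits the kinases that switch off the pyruvate dehydrogenase complex.

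SOX9 and SOX4 are HMG-box factors. In the kidney SOX9 marks tubular cells that dedifferentiate and divide after injury, and SOX4 acts in the developing nephron and in epithelial plasticity. Krüppel-like factors bind GC-rich promoters through zinc fingers. KLF6 and KLF4 are rapidly inducible by stress, and KLF5 is a factor of proliferating and collecting duct epithelium. RUNX1 is the DNA-binding partner of CBFB and is best known from blood cell development. C/EBPβ and C/EBPδ are leucine zipper factors that act downstream of cytokines of the interleukin-6 family and switch on acute phase genes. ETS2 is phosphorylated by the ERK kinase cascade below growth factor receptors.

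Library totals ran from 29505929 to 62237514 counts, and the 6 cisplatin-injected libraries had totals of 29505929 to 35925471, below the 38236592 to 62237514 of the other 6. Levels are in CPM, that is, relative to each library total after TMM scaling. As a check of the labelled tissue, the summed level of 8 proximal tubule markers was 9390 to 10500 CPM in saline mice and 8770 to 9840 in dichloroacetate mice. The same sum was 2860 to 3380 CPM in cisplatin mice and 5060 to 5500 in combination mice. No marker of this list was at 0. In whole-kidney RNA, fewer cells of a type and less RNA per cell cannot be told apart.

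The promoters of Cebpb, Klf4 and Klf6 are shown because these genes, with Ets2, had a response to cisplatin that differed between mice with and without dichloroacetate. RefSeq promoter windows (GRCm38.p6, 250 bases before to 50 after the start) were matched for 6 of the 9 genes, with 2 windows for Runx1. Sox9, Klf5 and Cebpd had no entry. Only the stretch before the annotated start is printed, read 5′ to 3′ on the strand of the gene. The Ets2 window begins after the annotated start of the gene and is not printed. Capitals mark TGACG or its reverse complement CGTCA, the core of the cAMP response element bound by ATF and CREB proteins, and CCAAT or its reverse complement ATTGG, the CCAAT box.
Cebpb, chr2:167688665.0-167688914.0, plus strand: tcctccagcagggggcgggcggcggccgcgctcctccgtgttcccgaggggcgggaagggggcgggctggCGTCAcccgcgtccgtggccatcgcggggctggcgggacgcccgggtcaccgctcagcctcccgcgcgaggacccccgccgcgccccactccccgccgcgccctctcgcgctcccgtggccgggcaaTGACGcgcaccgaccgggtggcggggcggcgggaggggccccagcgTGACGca
Klf4, chr4:55532476.0-55532725.0, minus strand: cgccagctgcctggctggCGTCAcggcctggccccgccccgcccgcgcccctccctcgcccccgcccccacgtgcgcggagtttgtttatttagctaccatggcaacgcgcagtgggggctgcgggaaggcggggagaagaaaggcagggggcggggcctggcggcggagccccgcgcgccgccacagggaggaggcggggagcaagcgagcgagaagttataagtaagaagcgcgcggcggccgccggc
Klf6, chr13:5861239.0-5861481.0, plus strand: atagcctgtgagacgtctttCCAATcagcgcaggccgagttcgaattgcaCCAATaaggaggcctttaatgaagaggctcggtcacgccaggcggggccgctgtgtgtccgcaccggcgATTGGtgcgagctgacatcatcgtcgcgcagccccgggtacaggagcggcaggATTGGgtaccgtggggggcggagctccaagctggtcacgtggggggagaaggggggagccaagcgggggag

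The Cebpb promoter held 3 such cores, which began 180, 53 and 7 bases before the start. Klf4 held 1, at 232 bases before the start. Ets2 held 1, at 32 bases before its RefSeq start, which lies inside the annotated gene. Klf6 held no such core but 4 CCAAT boxes, at 230, 200, 131 and 78 bases before the start, and the promoters of Sox4 and Runx1 also held CCAAT boxes. Over all 32851 windows in the table, 20.8% held TGACG on either strand and 37.4% held CCAAT on either strand. The TGACG search also takes in the full element TGACGTCA, which 1.79% of all windows and none of the 7 windows of these genes held. The AP-1 site TGAGTCA (5.2% of windows) and the C/EBP palindrome TTGCGCAA (0.183%) were in 0 of the 7. TATAAA (13.6% of windows, both strands) was found in the Cebpb window alone among the 7, at 21 bases after the RefSeq start. These matches describe letters in short windows and no binding was measured.

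**Figure D1:**
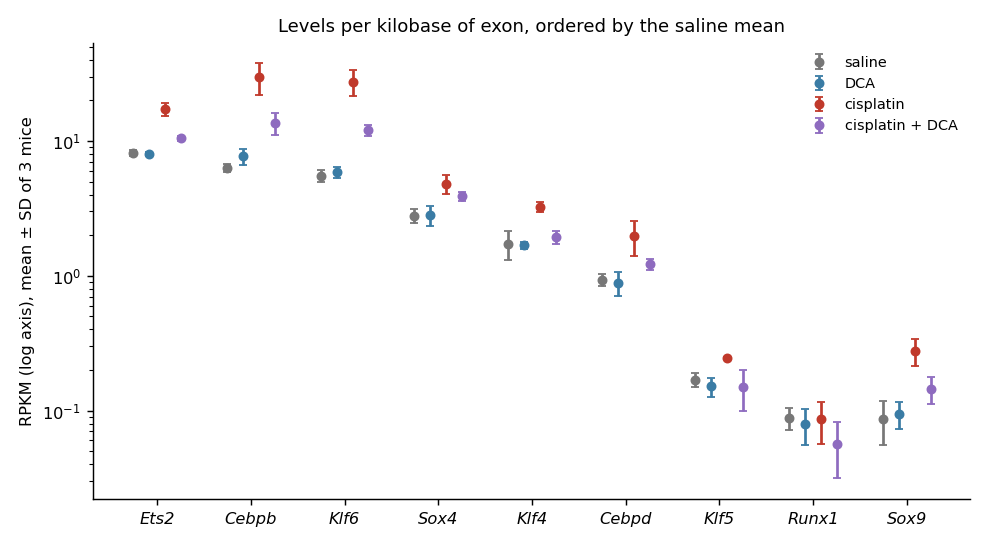
Levels of the 9 factors per kilobase of exon (RPKM, log axis) by group, ordered by the saline mean. Points are means and bars are SD over 3 mice. Ets2, Cebpb and Klf6 lie highest in every group, and Klf5, Runx1 and Sox9 lie lowest.

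The plot of levels per kilobase of exon orders the 9 genes by their saline level. These levels are CPM divided by the kilobases of exon (RPKM), which allows genes to be compared. Ets2 was highest in saline at 8.18 ± 0.444 RPKM (SD, n = 3), followed by Cebpb at 6.34 ± 0.46 and Klf6 at 5.51 ± 0.533, and the last pair overlapped within 1 SD. Sox4 (2.79 ± 0.321), Klf4 (1.72 ± 0.422) and Cebpd (0.936 ± 0.0988) formed the middle of the order. Klf5 (0.169 ± 0.0198), Runx1 (0.0877 ± 0.0165) and Sox9 (0.0866 ± 0.0314) were near the lower end, and Runx1 and Sox9 overlapped within 1 SD. In cisplatin mice the order at the top changed to Cebpb at 29.7 ± 7.89 RPKM, Klf6 at 27.5 ± 5.86 and Ets2 at 17.2 ± 1.93, with Cebpb and Klf6 not separated beyond their SD. Sox9 at 0.276 ± 0.0623 then stood beside Klf5 at 0.245 ± 0.00499, and Runx1 at 0.086 ± 0.0297 was lowest. Combination mice kept Cebpb (13.6 ± 2.51), Klf6 (12 ± 1.12) and Ets2 (10.5 ± 0.445) on top, each overlapping its neighbour within 1 SD. Sox9 rested on few counts, with 10 to 57 per library, and Klf5 on 17 to 52, so counting error adds to the spread of both.

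The effect of cisplatin alone was read against saline. Of the 9 factors, 8 rose and 0 fell in the edgeR quasi-likelihood test (Benjamini-Hochberg adjusted p below 0.05 over all 20370 genes), and Runx1 was not called. Over all genes tested, 29.7% rose and 30.4% fell. Because the 9 were chosen with earlier results known, their count beside these shares is a description. With library totals in place of TMM factors, the share of called genes that were higher moved from 49.4% to 73.1%, and no called direction among the 9 factors flipped. The median log2 fold change of the 9 was 1.07, beside -0.01 over all genes. Klf6 and Cebpb had the largest changes among the 9, at 4.99-fold and 4.67-fold the saline level.

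The Krüppel-like factors differed in size of response. Klf6 (ENSMUSG00000000078, chromosome 13, 5861482 to 5870394 in build mm10) was at 26.7, 23.8 and 22.1 CPM in the saline mice and at 145, 124 and 93.6 CPM in the cisplatin mice. The lowest cisplatin mouse was thus well above the highest saline mouse, and the log2 fold change was 2.32 (SE 0.14, adjusted p = 9.5e-09). Klf4 (ENSMUSG00000003032, chromosome 4, 55527143 to 55532466) was at 6.71, 4.34 and 4.66 CPM in saline and at 10.9, 9.45 and 9.47 CPM after cisplatin. These groups did not overlap either, and Klf4 rose by 0.92 on the log2 scale (SE 0.14, adjusted p = 9.1e-05). Klf5 (ENSMUSG00000005148, chromosome 14, 99298691 to 99315036) was at 0.997, 0.806 and 0.834 CPM in saline and at 1.28, 1.25 and 1.3 CPM after cisplatin. The 3 cisplatin mice lay close together above the saline mice, and the difference of 0.54 on the log2 scale (SE 0.22, adjusted p = 0.046) was just past the threshold. The Klf5 call was lost with no filter on low counts (adjusted p = 0.067) and with DESeq2 (adjusted p = 0.082). It was also lost without saline replicate 2 (adjusted p = 0.13) or 3 (0.1), and without cisplatin replicate 1 (0.085), 2 (0.085) or 3 (0.1).

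**Figure D2:**
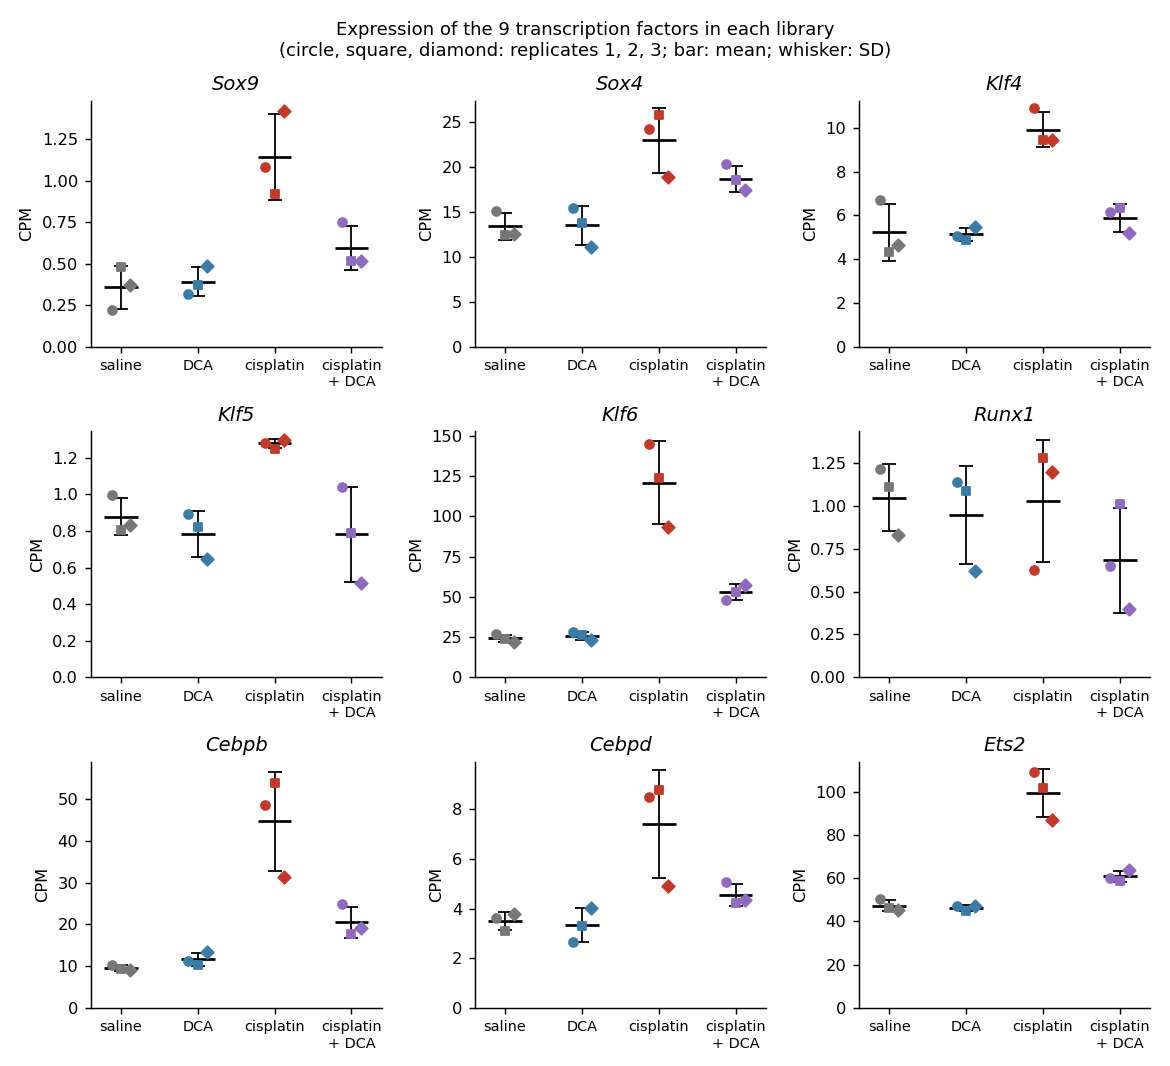
Level of each of the 9 factors in every library (CPM, linear axes from 0) in the 4 groups. Markers are the 3 replicates, bars the mean and whiskers the SD. Klf6 lies at 93.6 to 145 CPM in cisplatin mice, 47.8 to 57.6 in combination mice and 22.1 to 27.9 in the other mice, while Runx1 overlaps in all groups.

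Both C/EBP members rose. Cebpb (ENSMUSG00000056501, chromosome 2, 167688915 to 167690418) was at 10.3, 9.25 and 9.03 CPM in saline and at 48.6, 54.0 and 31.3 CPM after cisplatin. No cisplatin mouse came near the saline range, and the log2 fold change was 2.22 (SE 0.18, adjusted p = 2.2e-07). Cebpd (ENSMUSG00000071637, chromosome 16, 15887286 to 15891031) was at 3.63, 3.09 and 3.8 CPM in saline and at 8.52, 8.8 and 4.92 CPM after cisplatin. Cisplatin replicate 3 was the lowest cisplatin mouse for both genes and, for Cebpd, lay closer to the saline mice than to its own group. Cebpd rose on the log2 scale by 1.08 (SE 0.20, adjusted p = 4.3e-04).

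Ets2 (ENSMUSG00000022895, chromosome 16, 95702075 to 95721051) was at 50.2, 46.3 and 45.3 CPM in saline and at 109, 102 and 87.1 CPM after cisplatin. The groups did not overlap and Ets2 had the smallest SE of the 9 genes, and its change of 1.07 on the log2 scale (SE 0.08, adjusted p = 4.8e-08) corresponded to a 2.1-fold rise. Sox9 (ENSMUSG00000000567, chromosome 11, 112782224 to 112787760) was at 0.221, 0.48 and 0.374 CPM in saline and at 1.08, 0.921 and 1.42 CPM after cisplatin. It was scarce in all libraries, yet the groups did not overlap, and its log2 fold change was 1.66 (SE 0.29, adjusted p = 2.2e-04). Sox4 (ENSMUSG00000076431, chromosome 13, 28948919 to 28953713) was at 15.1, 12.4 and 12.6 CPM in saline and at 24.2, 25.8 and 18.9 CPM after cisplatin. Sox4 rose on the log2 scale by 0.78 (SE 0.13, adjusted p = 2.0e-04), with every cisplatin mouse above every saline mouse. Cisplatin replicate 3 was lowest of its group for Sox4, Klf6, Cebpb, Cebpd and Ets2 and highest for Sox9.

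Runx1 (ENSMUSG00000022952, chromosome 16, 92601466 to 92826149) was at 1.22, 1.11 and 0.834 CPM in saline and at 0.625, 1.28 and 1.2 CPM after cisplatin. The groups overlapped, and the difference of -0.04 on the log2 scale (SE 0.33, adjusted p = 0.93) had a 95% interval of -0.74 to 0.67, and a change within that range was not detectable at this depth and spread. Runx1 is also the one long gene of the set, with a genomic span of 224684 bp against 1504 to 18977 bp for the other 8. Over all tested genes with a position, the median log2 fold change after cisplatin was 0.12 for the 7972 genes of at most 10 kb, 0.07 for the 3257 of 10 to 20 kb, -0.06 for the 6513 of 20 to 100 kb, -0.57 for the 1839 of 100 to 400 kb and -1.39 for the 243 above 400 kb. The part of gene length in the values of Runx1 and of the 8 shorter genes was not tested.

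Dichloroacetate alone was compared with saline to see what the pretreatment did without injury. None of the 9 factors was called by edgeR, at a background of 0.309% of genes called in either direction. The count at an unadjusted p below 0.05 was 0 as well (smallest 0.16), and DESeq2 called 0. When only the 2 groups were fitted, 1 gene had an unadjusted p below 0.05, at 0.033. Cebpb had the largest estimate, at 11.1, 10.3 and 13.3 CPM beside 9.03 to 10.3 in saline, which is 0.28 on the log2 scale (SE 0.19, adjusted p = 0.61). Ets2 was the most closely bounded, at 47.0, 44.6 and 47.1 CPM, with a 95% interval of -0.20 to 0.13 on the log2 scale. Klf6 at 27.9, 26.0 and 23.2 CPM and Klf4 at 5.07, 4.88 and 5.47 CPM overlapped with saline, with intervals of -0.20 to 0.38 and -0.35 to 0.29. The widest intervals were those of Sox9 (-0.62 to 0.79) and Runx1 (-0.84 to 0.55), and changes within them were not detectable for these scarce genes. Dichloroacetate mice had 0.315, 0.373 and 0.485 CPM of Sox9 and 1.14, 1.09 and 0.62 CPM of Runx1. Sox4 was at 15.5, 13.8 and 11.1 CPM. These 3 genes overlapped with the saline mice. Klf5 was at 0.891, 0.821 and 0.647 CPM, and Cebpd at 2.66, 3.28 and 4.04 CPM. Both of these overlapped with saline as well.

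The combination was compared with cisplatin alone to see whether the pretreatment altered the injured kidney. Of the 9 factors, 7 fell, 0 rose, and Sox4 and Runx1 were not called. Over all genes tested, 13.5% fell and 18.1% rose, and with library totals the share of called genes that were higher moved from 57.3% to 31.1%. The median log2 fold change of the 9 was -0.71, beside 0.02 over all genes. This comparison and the one with saline share the 3 cisplatin libraries. The count of 7 became 4 without combination replicate 2.

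Klf6 was at 47.8, 53.0 and 57.6 CPM in the combination, below every cisplatin mouse and above every saline mouse, which is -1.19 on the log2 scale from cisplatin (SE 0.13, adjusted p = 2.9e-05). Klf4 at 6.18, 6.36 and 5.18 CPM was back within the saline range of 4.34 to 6.71 CPM. The Klf4 log2 fold change from cisplatin was -0.75 (SE 0.15, adjusted p = 0.0015). Klf5 at 1.04, 0.788 and 0.518 CPM lay below every cisplatin mouse, at -0.71 (SE 0.23, adjusted p = 0.029). The Klf5 call was lost without cisplatin replicate 1 (adjusted p = 0.068), 2 (0.066) or 3 (0.068) and without combination replicate 2 (0.077) or 3 (0.11).

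Cebpb was at 24.8, 17.6 and 19.1 CPM in the combination, with a mean of 20.5 ± 3.77 beside 44.7 ± 11.9 in cisplatin mice. All 3 values lay below the lowest cisplatin mouse, and the log2 fold change was -1.12 (SE 0.18, adjusted p = 3.1e-04). Cebpd was at 5.07, 4.24 and 4.36 CPM, and here the groups overlapped, because cisplatin replicate 3 stood at 4.92. The Cebpd log2 fold change was -0.70 (SE 0.20, adjusted p = 0.018), and the call was lost without cisplatin replicate 1 (adjusted p = 0.074) or 2 (0.085) and without combination replicate 2 (0.065). Ets2 at 60.3, 58.7 and 63.7 CPM was below every cisplatin mouse, at -0.71 (SE 0.07, adjusted p = 2.1e-05).

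Sox9 was at 0.748, 0.516 and 0.518 CPM in the combination, which did not overlap with cisplatin, with a difference of -0.96 on the log2 scale (SE 0.28, adjusted p = 0.019). The Sox9 call was lost without cisplatin replicate 3, its highest library (adjusted p = 0.084), and without combination replicate 2 (0.077) or 3 (0.061). Sox4 at 20.3, 18.6 and 17.4 CPM overlapped with the cisplatin mice, and its change of -0.29 on the log2 scale (SE 0.13, adjusted p = 0.11) did not pass. Sox4 was called with library totals (adjusted p = 0.039), with only the 2 groups fitted (adjusted p = 0.05 after rounding) and without cisplatin replicate 3 (0.026). Runx1 at 0.65, 1.01 and 0.396 CPM was at -0.58 (SE 0.36, adjusted p = 0.25), with an interval of -1.35 to 0.19.

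Against dichloroacetate alone, which gives the response to cisplatin in pretreated mice, 4 of the 9 factors rose in the combination and 0 fell, at a background of 21.5% risen and 19.2% fallen. With library totals the share of called genes that were higher moved from 52.8% to 79.2%. The 4 were Klf6 at 1.04 (SE 0.13, adjusted p = 4.3e-05), Cebpb at 0.82 (SE 0.18, adjusted p = 0.0027), Sox4 at 0.47 (SE 0.13, adjusted p = 0.013) and Ets2 at 0.40 (SE 0.08, adjusted p = 9.1e-04). The Sox4 call was lost without dichloroacetate replicate 3 (adjusted p = 0.052) or combination replicate 1 (0.055). Sox9 (0.62, SE 0.32, adjusted p = 0.14) and Cebpd (0.46, SE 0.21, adjusted p = 0.099) were higher in every combination mouse than in any dichloroacetate mouse but were not called. Both passed with library totals, at adjusted p = 0.041 and 0.021, and Cebpd also without dichloroacetate replicate 3 (0.047). Klf4 (0.20), Klf5 (-0.03) and Runx1 (-0.48) overlapped between these groups.

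The combination was also compared with saline, the untreated level. The same 4 genes, Klf6, Cebpb, Sox4 and Ets2, were called as higher and 0 as lower, at a background of 20.6% risen and 19.6% fallen. With library totals the share of called genes that were higher moved from 51.3% to 74.9%. Klf6 was 2.18-fold above saline (log2 1.13, SE 0.14, adjusted p = 2.3e-05) and Cebpb 2.14-fold (log2 1.10, SE 0.18, adjusted p = 3.8e-04). Sox4 at 0.49 (SE 0.13, adjusted p = 0.011) and Ets2 at 0.36 (SE 0.08, adjusted p = 0.0018) were closer to the saline level. Sox9 (0.70, adjusted p = 0.096), Cebpd (0.38, adjusted p = 0.17) and Klf4 (0.17, adjusted p = 0.38) were not called. Sox9 passed with library totals (0.036) and without saline replicate 2 (0.046), Klf4 without saline replicate 1 (0.019) and Cebpd with only the 2 groups fitted (0.047).

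The interaction takes the log2 response to cisplatin in pretreated mice (combination against dichloroacetate) and subtracts the response without pretreatment (cisplatin against saline), and so tests whether the 2 responses differed. It was negative for all 9 factors and was called for 4, with 0 called as positive. Over all genes, 7.15% were called negative and 11.4% positive, and library totals moved the share of positive calls from 61.5% to 41.8%. The called genes were Cebpb at -1.40 (SE 0.26, adjusted p = 0.0023), Klf6 at -1.28 (SE 0.19, adjusted p = 6.2e-04), Klf4 at -0.72 (SE 0.21, adjusted p = 0.028) and Ets2 at -0.67 (SE 0.11, adjusted p = 9.0e-04). For Klf6 the response was 4.99-fold without and 2.05-fold with dichloroacetate, and for Cebpb 4.67-fold and 1.77-fold. The Klf4 call was lost without saline replicate 2 (adjusted p = 0.068) or 3 (0.057), cisplatin replicate 1 (0.064), dichloroacetate replicate 1 (0.053) or 3 (0.055), or combination replicate 3 (0.056). Sox9 had an estimate of -1.04, larger than that of Klf4, but with a wider interval of -1.97 to -0.11 it was not called (adjusted p = 0.11). Cebpd was at -0.62 (SE 0.29, adjusted p = 0.17) and was called without cisplatin replicate 3 (-0.84, adjusted p = 0.015). Klf5 (-0.56, -1.25 to 0.12), Sox4 (-0.31, -0.72 to 0.10) and Runx1 (-0.44, -1.48 to 0.60) had intervals that include 0.

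**Figure D3:**
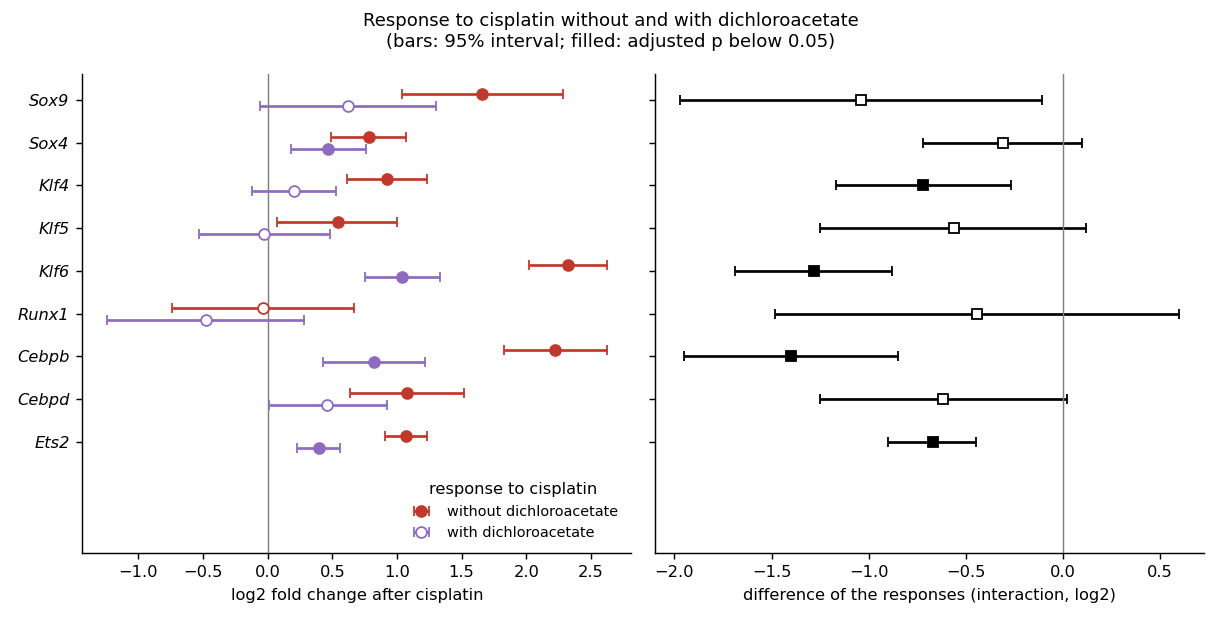
Response of each factor to cisplatin without dichloroacetate (cisplatin against saline, red) and with it (combination against dichloroacetate, purple) on the log2 scale, left, and the difference of the 2 responses, right. Bars are 95% intervals and filled symbols have an adjusted p below 0.05. The called differences are those of Klf4, Klf6, Cebpb and Ets2, from -1.40 to -0.67.

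Relatives of the 9 factors moved in both directions after cisplatin. Of 76 genes listed as of the same families or named after them, 57 were tested. The RUNX list includes Cbfb, Runx1t1 and Cbfa2t2 and the C/EBP list includes Cebpz, which lack the DNA-binding domain of those families. Of these, 18 rose (31.6%) and 15 fell (26.3%), near the 29.7% and 30.4% over all genes, and 24 did not pass, with a median log2 fold change of -0.07. Among 8 other SOX genes 0 rose and 2 fell (25%). These 2 were Sox5 at -1.79 (SE 0.26, adjusted p = 5.2e-05) and Sox6 at -1.56 (SE 0.08, adjusted p = 3.2e-09). Among 19 other KLF and SP genes 6 rose (31.6%) and 7 fell (36.8%), near the shares over all genes. Klf12, a transcriptional repressor, fell from 3.21 ± 0.909 to 0.385 ± 0.0244 CPM, at -3.06 (SE 0.23, adjusted p = 8.2e-08). Klf15, known from podocytes and metabolic control, fell from 109 ± 11.3 to 38.4 ± 9.8 CPM, at -1.5 (SE 0.17, adjusted p = 3.8e-06), and Sp6 rose by 1.48 (SE 0.14, adjusted p = 9.0e-07). Klf6 rose and Klf15 fell in the same mice.

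In the RUNX group, 1 of 5 relatives rose (20%) and 2 fell (40%), beside 29.7% and 30.4% of all genes. The 1 that rose was Cbfb, the partner subunit of RUNX1, at 0.55 (SE 0.15, adjusted p = 0.0063). Of 4 listed C/EBP relatives, 2 rose (50%) and 0 fell. Ddit3, which encodes the stress factor CHOP, rose from 9.78 ± 2.14 to 25.4 ± 5.58 CPM, at 1.38 (SE 0.17, adjusted p = 1e-05). Of 21 other ETS genes, 9 rose (42.9%) and 4 fell (19%). Etv4, an ERK-responsive PEA3 factor, rose by 1.47 (SE 0.15, adjusted p = 2.1e-06) and the epithelial factor Elf3 by 1.06 (SE 0.10, adjusted p = 8.8e-07), while Etv6 fell by 1.02 on the log2 scale (SE 0.10, adjusted p = 1.1e-06). Etv5, which belongs to the same PEA3 group as Etv4, fell from 23.1 ± 1.17 to 14.4 ± 0.583 CPM, at -0.67 (SE 0.09, adjusted p = 2.6e-05).

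**Figure D4:**
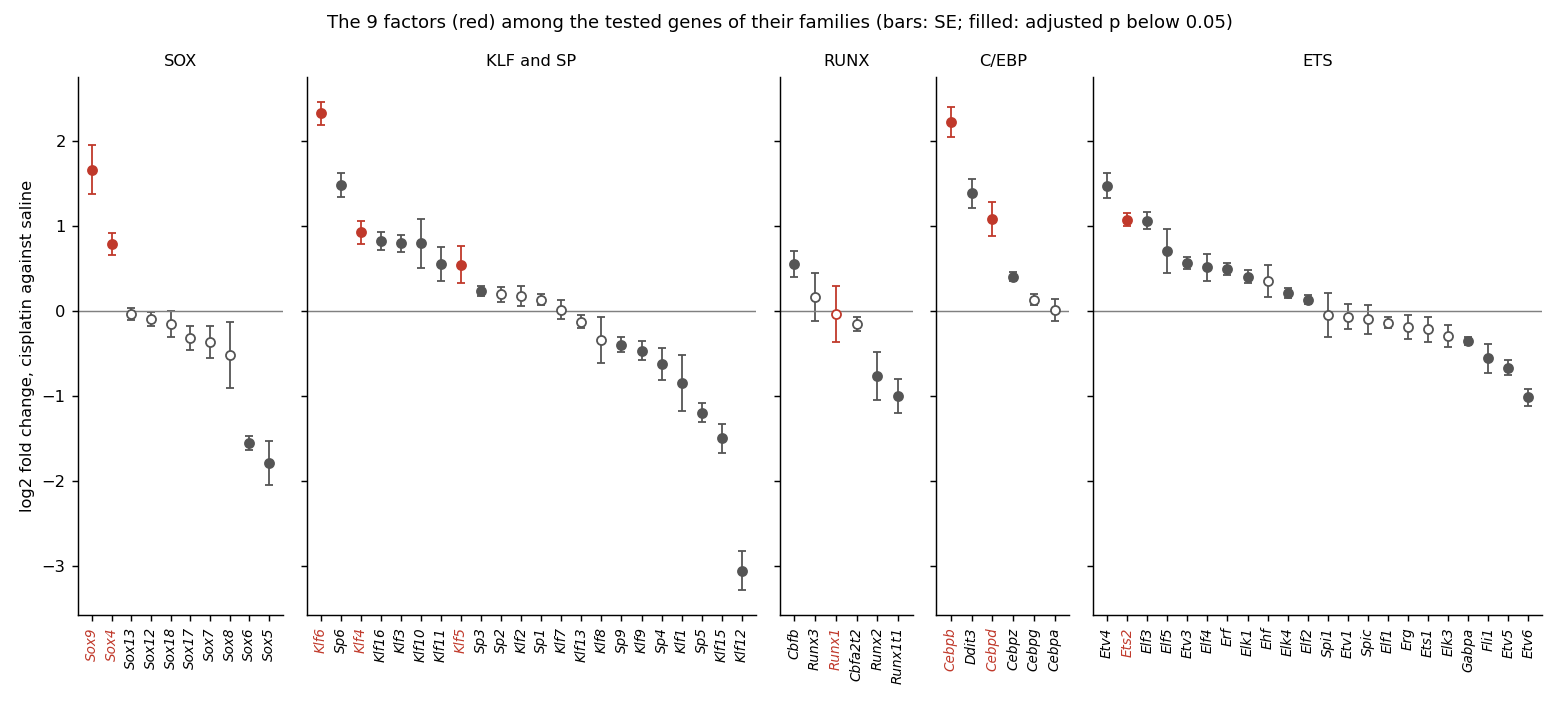
Log2 fold change after cisplatin (cisplatin against saline, bars SE) of the 9 factors in red and of the tested genes listed as their relatives in grey. Filled symbols have an adjusted p below 0.05. Sox9, Klf6 and Cebpb are at the top of their families, and Klf12 at -3.06 is the lowest gene shown.

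With dichloroacetate alone, edgeR called 0 of these 57 relatives (5 at an unadjusted p below 0.05), and DESeq2 called 2, Etv5 and Etv6. In the combination against cisplatin, 10 of the 57 rose (17.5%, beside 18.1% of all genes) and 14 fell (24.6%, beside 13.5%), and all 4 C/EBP relatives were among those that fell. Sox6 (1.00, SE 0.08, adjusted p = 4.4e-06), Klf12 (1.66, SE 0.26, adjusted p = 3.3e-04) and Klf15 (0.98, SE 0.17, adjusted p = 5.5e-04), which had fallen after cisplatin, were higher in the combination. Ddit3 was lower, at -0.92 (SE 0.17, adjusted p = 0.001). Against dichloroacetate 10 rose and 11 fell (17.5% and 19.3%, beside 21.5% and 19.2% of all genes). Against saline 9 rose and 12 fell (15.8% and 21.1%, beside 20.6% and 19.6%), a total of 21 that became 13 without combination replicate 3. The interaction was called as positive for 5 and as negative for 6 (8.77% and 10.5%, beside 11.4% and 7.15% of all genes).

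The listed inputs and outputs of these factors were also followed, and each count is read beside the shares over all genes, which were 29.7% risen and 30.4% fallen after cisplatin and 18.1% and 13.5% in the combination against cisplatin. Of 16 tested ligands, receptors and mediators of the interleukin-6 family, 9 rose (56.2%) and 2 fell (12.5%) after cisplatin, with a median of 0.53. Among the 9 was Il11, at 0.0765 CPM in saline and 0.304 after cisplatin. Il11 had enough counts for the test only through the cisplatin mice. The ligand gene Lif rose from 0.505 ± 0.113 to 11.3 ± 1.6 CPM, at 4.51 (SE 0.25, adjusted p = 5.5e-09), and the ligand gene Clcf1 from 6.33 ± 0.609 to 30.2 ± 1.42 CPM, at 2.26 (SE 0.14, adjusted p = 1.5e-08). Socs3, a feedback inhibitor induced by STAT3, rose from 1.32 ± 0.378 to 6.66 ± 1.69 CPM, at 2.31 (SE 0.24, adjusted p = 1.8e-06). The receptor gene Lifr fell from 75.1 ± 4.16 to 43.7 ± 2.6 CPM, at -0.78 (SE 0.06, adjusted p = 1.0e-07), so ligand and receptor moved in opposite directions. In the combination against cisplatin, 8 of the 16 fell (50%, beside 13.5%) and 2 rose (12.5%, beside 18.1%), with Lif at -1.19 (SE 0.19, adjusted p = 4.2e-04) and Socs3 at -1.22 (SE 0.22, adjusted p = 0.001). Many of the 16 still responded to cisplatin in pretreated mice. Against dichloroacetate alone, 8 rose in the combination (50%, beside 21.5% of all genes) and 4 fell (25%, beside 19.2%).

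Of 16 listed acute phase genes known to depend on C/EBP factors, 10 had enough counts to be tested. Of these, 6 rose (60.0%, beside 29.7% of all genes) and 1 fell (10%, beside 30.4%) after cisplatin, with a median of 1.83. Among the 6 were Saa1 (0.0192 CPM in saline, 0.652 after cisplatin) and Saa3 (0.032 and 0.985). Both had enough counts for the test only through the cisplatin mice, so a rise was set in advance. The count and the median include them. C3, the central complement component, rose from 13.5 ± 2.99 to 143 ± 15.0 CPM, at 3.39 (SE 0.17, adjusted p = 1.7e-09). Lcn2, which encodes the injury marker NGAL, rose from 0.936 ± 0.129 to 6.73 ± 2.17 CPM, at 2.83 (SE 0.29, adjusted p = 1.6e-06), and the fibrinogen chain gene Fga from 13.3 ± 1.35 to 76.8 ± 7.55 CPM, at 2.52 (SE 0.09, adjusted p = 7.9e-11). In the combination against cisplatin 2 fell (20.0%, beside 13.5% of all genes) and 1 rose (10%, beside 18.1%). Fga was at -1.28 (SE 0.08, adjusted p = 1.0e-06) and C3 at -0.72 (SE 0.15, adjusted p = 0.0026). Against dichloroacetate alone, 6 of the 10 rose in the combination (60.0%, beside 21.5% of all genes) and 0 fell (beside 19.2%). Saa1 and Saa3 were at 0 CPM in dichloroacetate mice.

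Of 16 genes known from SOX9-positive repairing tubule, 10 rose (62.5%, beside 29.7% of all genes) and 0 fell (beside 30.4%) after cisplatin, with a median of 0.36. Havcr1, the injury receptor KIM-1, was at 2.16 (SE 0.11, adjusted p = 3.5e-09), and Spp1, osteopontin, rose from 343 ± 33.4 to 813 ± 156 CPM, at 1.24 (SE 0.13, adjusted p = 1.9e-06). The 6 not called were Cdh6 (-0.24), Vim (-0.02), Cd44 (0.24), Cd24a (0.22), Itgb6 (0.19) and Pax8 (0.12). In the combination 6 of the 16 fell from the cisplatin level (37.5%, beside 13.5%) and 1 rose (6.25%, beside 18.1%), with Havcr1 at -0.89 (SE 0.11, adjusted p = 6.0e-05). Against dichloroacetate alone, 9 of the 16 rose in the combination (56.2%, beside 21.5% of all genes) and 0 fell (beside 19.2%). Of 17 tested genes at the input and in the feedback of the ERK cascade, 10 rose (58.8%, beside 29.7% of all genes) and 3 fell (17.6%, beside 30.4%) after cisplatin. Among the 10 was Areg, at 0.00738 CPM in saline and 0.816 after cisplatin. Areg had enough counts for the test only through the cisplatin mice. The ERK phosphatase genes Dusp5 at 2.48 (SE 0.21, adjusted p = 3.1e-07) and Dusp4 at 1.68 (SE 0.18, adjusted p = 3.5e-06) rose, and Dusp1 fell from 45.8 ± 8.14 to 28.3 ± 2.48 CPM, at -0.69 (SE 0.15, adjusted p = 0.0014). In the combination 7 of the 17 fell from the cisplatin level (41.2%, beside 13.5%) and 2 rose (11.8%, beside 18.1%). Against dichloroacetate alone, 5 of the 17 rose in the combination (29.4%, beside 21.5%) and 1 fell (5.88%, beside 19.2%). The receptor gene Erbb2 was one of the 3 that fell after cisplatin, at -0.62 (SE 0.05, adjusted p = 3.1e-07). Erbb2 was also the one gene of these 4 lists called with dichloroacetate alone, where it fell from 74.3 ± 2.97 to 60.3 ± 1.41 CPM, at -0.30 (SE 0.05, adjusted p = 0.036). That call was lost with only the 2 groups fitted (adjusted p = 0.16), without saline replicate 1 (0.1) or 2 (0.1), and without dichloroacetate replicate 1 (0.077), 2 (0.074) or 3 (0.11).

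Markers of other cell types that express some of these factors were measured in the same libraries. Their called counts are read beside the shares over all genes, 29.7% risen and 30.4% fallen after cisplatin. In the combination against cisplatin these shares were 18.1% risen and 13.5% fallen. The summed level of 10 macrophage and monocyte markers was 145 to 160 CPM in saline mice. It was 134 to 154 in cisplatin mice and 108 to 120 in combination mice. After cisplatin 1 of the 10 rose (10%) and 4 fell (40%). The 1 that rose was Cd68, a lysosomal protein gene, from 2.04 ± 0.574 to 33.1 ± 8.29 CPM, at 4.00 (SE 0.24, adjusted p = 9.4e-09), while the macrophage receptor gene Csf1r fell from 79.2 ± 5.03 to 43.4 ± 2.55 CPM. In combination mice Cd68 was at 4.86 ± 1.26 CPM and Csf1r at 51.0 ± 3.03. The macrophage sums of cisplatin and combination mice thus differ mainly through Cd68, and they are not a measure of macrophage number. Of 6 neutrophil markers, 5 were in the table, with a sum of 17.6 to 26.2 CPM in saline mice. The sum was 26.6 to 31.6 in cisplatin mice and 19.2 to 23.6 in combination mice. Most of it was Ly6g (19.1 ± 4.48 CPM in saline, 24.1 ± 2.42 after cisplatin), which was not called (adjusted p = 0.059, edgeR). After cisplatin 2 of the 5 rose (40%), S100a8 and S100a9, at means of only 0.422 and 0.821 CPM. Endothelial markers (8 genes) summed to 229 to 309 CPM in saline, 197 to 211 in cisplatin and 168 to 217 in combination mice. After cisplatin 4 of the 8 fell (50%). Fibroblast and smooth muscle markers (9 genes) summed to 214 to 270, 165 to 179 and 132 to 171 CPM in the same groups, and 3 of 9 fell (33.3%). In the combination against cisplatin 0 of either list were called. Lymphocyte markers (9 genes) summed to 1.92 to 2.72 CPM in saline and 1.9 to 2.38 in cisplatin mice, and 0 of the 4 tested were called after cisplatin. No marker in the table was at 0 in all libraries. All 8 proximal tubule markers fell after cisplatin and all 8 were higher in the combination than in cisplatin mice. The 7 markers of the loop of Henle and distal tubule summed to 4930 to 5470 CPM in saline mice. Their sum was 1930 to 2470 in cisplatin mice and 1830 to 2860 in combination mice. After cisplatin 7 of 7 fell, and 2 (28.6%) were higher in the combination than in cisplatin mice. Collecting duct markers (8 genes) summed to 670 to 750 CPM in saline, 517 to 547 in cisplatin and 530 to 634 in combination mice, and 6 of 8 fell after cisplatin. Podocyte markers (6 genes) summed to 227 to 258, 182 to 204 and 176 to 195 CPM in the same groups, and 5 of 6 fell after cisplatin. The part of these cell types in the levels of the 9 factors was not tested.

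The labels name a TruSeq RNA kit without saying whether its stranded form was used, and none of the sources names the strand setting of the counting. Without strand, reads from a gene and from an overlapping gene on the opposite strand cannot be told apart. Sox4 shares 2616 bp of exon with the non-coding gene Gm26735, nearly all of its 2649 bp. Gm26735 was at 9.08 ± 0.884 CPM in saline and 15.2 ± 1.81 after cisplatin, at 0.74 (SE 0.12, adjusted p = 1.3e-04), and its level had a Pearson r of 0.997 with Sox4 over the 12 libraries. Cebpb shares 312 bp with Tmem189, which fell from 234 ± 19.6 to 137 ± 10.3 CPM while Cebpb rose. Tmem189 was far above Cebpb in saline mice (9.53 ± 0.691 CPM for Cebpb). Without strand, some reads counted for Cebpb could stem from Tmem189, and this was not tested. Cebpd shares 562 bp with Spidr, which fell from 7.11 ± 0.209 to 1.48 ± 0.26 CPM while Cebpd rose. Runx1 shares 106 bp with the antisense gene Gm26626, which had too few counts to be tested.

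Over the 12 libraries the factors that rose varied together, given here as a description, since the libraries share their 4 groups. Klf6 and Ets2 had a Pearson r of 0.99 on the log2 CPM scale, and Cebpb had 0.97 with each of them. Sox9 had 0.67 with Sox4 and 0.86 with Cebpb, and Runx1 ranged from -0.18 with Cebpd to 0.52 with Klf5. Among the 16129 genes with a mean of at least 1 CPM, the levels most like Klf6 were those of 1700110K17Rik (0.997), the AP-1 gene Jun (0.997) and the NF-κB feedback gene Tnfaip3 (0.994). Jun was at 19.5 CPM in saline, 20.8 in dichloroacetate, 104 in cisplatin and 47.2 in combination mice, the same order of groups as Klf6. The genes most like Ets2 were Rela, Trp53 and Ptpn23, each at 0.996. Cebpb was most like Otud7b (0.987), Klf4 most like Caml (0.982), Sox9 most like Zpr1 (0.97) and Cebpd most like Zfp777 (0.967). Klf5 (Spsb1, 0.92) and Runx1 (Slc14a1, 0.922) had the weakest nearest genes. Klf5, Runx1 and Sox9 are all low in counts, and the part of counting in these correlations was not tested.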

How the data were processed

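Whole-kidney RNA of 12 mice was sequenced. The authors deposited whole-number read counts per Ensembl gene, 1 column per library, which are the values used, and a normalised table not used here. The submitters' processing notes name Trimmomatic, TopHat, Cufflinks, HTSeq, bedtools and DESeq with build mm10. Versions, parameters and how reads shared by overlapping genes were counted are not given in the sources used here. GEO's design text calls the 3 replicates per group biological, and chi-square per degree of freedom between replicates was 4.4 to 26.3, so each was counted as 1 mouse.

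Symbols (27955 of 28991 identifiers) and gene positions come from GENCODE M21 (GRCm38, the assembly of mm10). Genes passing filterByExpr (20370) went into the quasi-likelihood test of edgeR 4.0.16 under R 4.3.3, with TMM scaling and all 12 libraries in 1 model, which left 8 residual degrees of freedom and gave a biological coefficient of variation of 0.0917. Adjusted p-values are 2-sided and Benjamini-Hochberg adjusted over all genes tested. CPM and RPKM use TMM-adjusted totals. RPKM divides by the summed exon length, and correlations use log2 CPM with a prior count of 2. The script was tested on simulated data. Alternatives were median-of-ratios scaling, library totals, no count filter, DESeq2 1.42.0, the replicate number as a block, only the groups compared, and leaving out each library. The precision is limited by 3 mice per group, and for genes near 1 CPM by counting.

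The 9 genes and 18 related lists (215 entries, 209 in the table) were chosen with earlier results of these data known. From each list and comparison, up to 3 called genes with the largest rise and 3 with the largest fall were eligible to be named, at a mean of at least 1 CPM in the higher group, and such a gene may also be given in other comparisons. Some list genes outside this rule are named because they limit a count or a sum. For each factor the 3 genes with the highest Pearson r over the 12 libraries were eligible as nearest genes.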

Additional observations from a re-analysis of the deposited data

Results flagged for a closer look

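The response to cisplatin differed between mice with and without dichloroacetate, by the interaction term of the edgeR model, for 4 of the 9 factors and for 28 of the related family and pathway genes the naming rule covers. Over all genes, 7.15% were called negative and 11.4% positive. The naming rule takes called genes with large changes, so the 28 are not a share of the lists. It also leaves out other genes of the lists that were called. Each value is a log2 difference with an adjusted p below 0.05. Among the factors these were Klf4 at -0.72, Klf6 at -1.28, Cebpb at -1.40 and Ets2 at -0.67.

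Among the relatives, the genes Sox6 (1.17), Klf12 (1.40), Klf15 (1.14) and Sp5 (0.74) and the ETS gene Etv5 (0.81), all lower after cisplatin, had positive differences. Cbfb (-0.86), Ddit3 (-1.06), Elf3 (-0.59), Etv3 (-0.37), Cebpg (-0.29) and Cebpz (-0.26) had negative ones. In the interleukin-6 list the ligand Clcf1 was at -0.84, the targets Bcl3 and Socs3 at -1.25 and -1.13, and the shared receptor Il6st at -0.41, while the receptors Il11ra1 and Lifr were at 0.33 and 0.30. The acute phase genes were C3 at -0.83 and Fga at -1.11. The repairing tubule genes were Havcr1 at -1.43, Lgals3 at -0.43, Krt8 at -0.29 and Itgb6 at 0.40. In the ERK list Phlda1 was at -1.49, Dusp5 at -1.20, Hbegf at -0.74, Erbb2 at 0.52 and Spred2 at 0.34. Against saline Erbb2 was at -0.62 with cisplatin and at -0.30 with dichloroacetate alone, and the combination was at -0.10 against dichloroacetate (adjusted p = 0.16, edgeR).

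Of 17 alternatives each, the call was lost in 10 for Spred2 (adjusted p up to 0.16), 9 for Socs3 (0.14) and Itgb6 (0.14), 7 for Lifr (0.11), Krt8 (0.11) and Cebpz (0.082), 6 for Klf4 (0.068), 5 for Etv3 (0.072), 3 for Cebpg (0.058) and 2 for C3 (0.053), Dusp5 (0.059) and Lgals3 (0.054). The direction held in each of these alternatives.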

How the results depend on the processing

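Of 693 values of the 9 factors under the alternatives, 637 kept their direction and their side of the threshold, 26 lost the call, 12 gained it and 18 changed sign. None of the sign changes concerned a called factor. With library totals the sign changed for Runx1 in cisplatin against saline (0.23), Sox4 in dichloroacetate against saline (-0.03), Klf5 in the combination against dichloroacetate (0.16) and the relative Cebpg in that comparison (0.03). Library totals moved the median of all genes by 0.276 in cisplatin against saline, -0.127 in the combination against cisplatin, 0.191 against dichloroacetate and 0.148 against saline. Leaving out 1 library gave -0.21 to 0.24 for Runx1 in cisplatin against saline. In dichloroacetate against saline it gave -0.17 to 0.40 for Sox9, -0.10 to 0.14 for Sox4, -0.16 to 0.19 for Klf4, -0.30 to 0.07 for Runx1, -0.24 to 0.07 for Cebpd and -0.06 to 0.01 for Ets2. For Klf5 it gave -0.27 to 0.18 in the combination against dichloroacetate and -0.42 to 0.04 against saline. Genes called with dichloroacetate alone numbered 63, but 134 with library totals (share higher 22.4% in place of 41.3%), 119 with no filter, 309 with DESeq2, 15 with only these groups fitted and 16 to 126 without 1 library. The cause was not tested. Relatives called there numbered 0, but 2 with DESeq2. Factors called in the combination against cisplatin numbered 4 to 7 without 1 library, and relatives in the combination against saline 13 to 20. With the replicate number as a block, genes called with dichloroacetate alone numbered 117, relatives 1, and Sox4 was called in the combination against cisplatin (-0.29, adjusted p = 0.024), with no other call among the factors changed. Same-numbered libraries correlated at -0.0953 to 0.152 after removing group means (4 of 18 pairs over 0.1). Of 12 libraries, 6 correlated best with one of their own number. These small correlations cannot decide whether the numbers pair the mice. Sox9, Klf5 and Runx1, near 1 CPM, are limited by counting as well as by 3 mice per group.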
